A study of Mus musculus with 9 samples.

Results

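Adult gastrocnemius (GAS) was compared with primary myotubes (MT) by RNA sequencing, in 3 GAS and 2 MT libraries out of the 9 libraries of the series. The comparison covers the 21173 protein-coding genes listed in both the GAS files and the files of the cultured cells, out of 47529 genes listed in any file. GAS was gastrocnemius muscle of female C57BL/6 mice (substrain J in the study's methods) aged 8 to 12 weeks, labelled control, and the replicates of every group are labelled biological without a statement of how many animals or cultures each holds, so p-values measure the spread between these libraries. MT were C57BL/6 primary myoblasts (MB) fused in culture on a Matrigel coat for 3 days in medium with 2% horse serum, and they had received PBS as the vehicle of a lactate treatment that is not part of this comparison. The remaining libraries were MB with and without lactate, and MB values are given below only where they bear on a result.

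Skeletal muscle fibers are long cells with many nuclei that form when myoblasts leave the cell cycle and fuse. A new fiber first makes embryonic and neonatal forms of its contractile proteins, a fetal acetylcholine receptor over its whole surface, and general forms of its metabolic enzymes. Adult forms replace them as the fiber receives its nerve and matures, and in the mouse gastrocnemius most fibers become fast and glycolytic. A cultured myotube has no nerve, no load and no blood supply, and a piece of whole muscle also holds vessels, connective tissue, fat, nerve, blood and satellite cells.

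The protocols differed, with poly(A) selection for GAS and Smart-seq2 on 5 ng of RNA for MT, so tissue and library protocol cannot be told apart in any result below. The files differed as well, with 38293 genes of any type listed for GAS, 46078 for the cultured cells and 36842 in both. Whether both were counted with the same annotation and settings is not known, and any such difference cannot be told apart from tissue either. A pair of measures that stay within a library was therefore used beside the test between groups, namely the rank of a gene among the protein-coding genes of its own library, and the share of a gene in its pair. Between 19307793 and 19941574 reads were counted on genes in GAS, and 10839516 and 7856301 in MT 1 and MT 2. Libraries of the same group were alike, with Spearman correlations across 13471 genes of 0.991 to 0.993 among GAS and 0.948 between the MT libraries, against 0.595 to 0.625 between GAS and MT. MT 1 stood apart from MT 2 in that 3297 genes had more than 3 counts in MT 1 and none in MT 2, against 14 the other way. These genes held 0.906% of the counts of MT 1, and 547 of them were tested. Counts over the lists of other cell types are given without MT 1 where that changed them. Such a fit leaves 1 MT library, which is assumed to vary like GAS, so its counts are not stronger results. Y-linked genes were at 0 counts in all 5 libraries, for 4 of 4 genes looked up.

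Levels are given as TPM, which are transcripts per 1e6, that is counts per kilobase of exon scaled to the same sum over all protein-coding genes of each library, so that genes can be compared with each other. Differences between groups are log2 fold changes of GAS over MT from edgeR's quasi-likelihood test on counts with TMM normalization. The value after ± on a log2 fold change is an approximate standard error. It is the size of the log2 fold change divided by the square root of the test's F statistic. A gene was called when its adjusted p was under 0.05 and its log2 fold change was over 1 in either direction. Of 13471 genes tested, 3726 were called higher in GAS (27.7%) and 3683 higher in MT (27.3%), 55.0% in all, with a median log2 fold change of -0.03. Every count of list members called below stands against these shares. The lists and their members were chosen with earlier results of these data known, so such counts describe them and test nothing. By rank within the library, 39.9% of the tested genes stood higher in every GAS library than in both MT libraries, and 40.5% stood lower. Statements below that ranks or groups did not overlap stand against these 2 shares. When libraries were scaled by their total alone, the median moved to -1.11, 2028 genes were called higher in GAS and 6593 in MT, so that 23.5% instead of 50.3% of the calls were higher in GAS. Among the genes named below, Myh7, Myl2, Mybpc1, Myf6, Atp2a2, Cacnb1, Cacng1, Ldha, mt-Nd6, Cldn5, Vwf, Col1a2 and Pax7 were no longer called on that scale. The libraries also differed in make-up, since 19 to 20 genes held 50% of all TPM in GAS, against 403 and 314 genes in MT 1 and MT 2, and the part of this in the shift was not tested. Of the 100 highest genes of each group, 36 were shared.

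**Figure D1:**
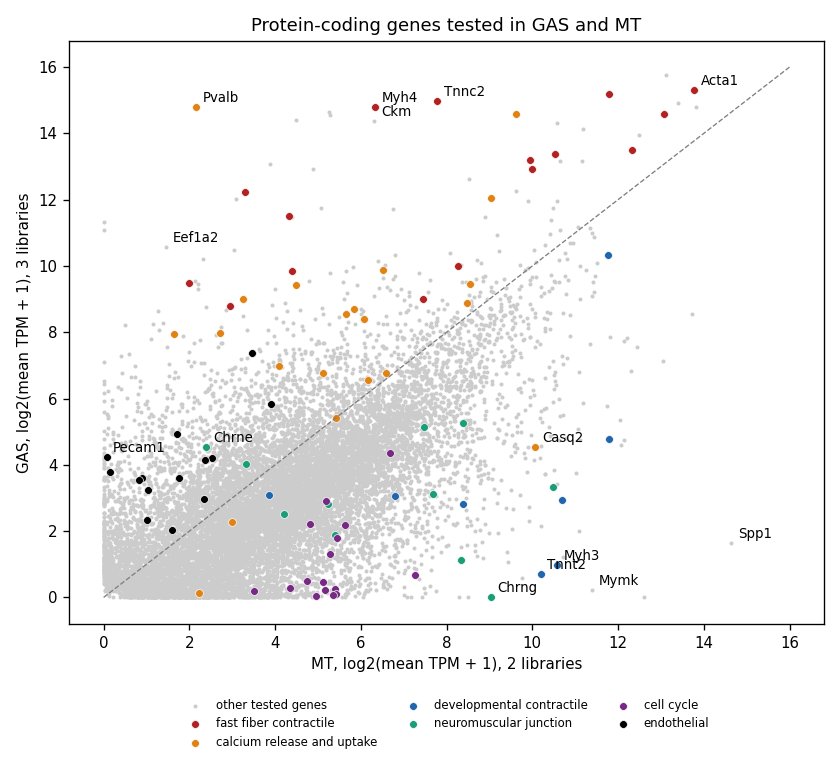
Mean level of each tested protein-coding gene in MT (x axis) and GAS (y axis) as log2(mean TPM + 1), with 6 gene lists in color and the dashed line at equal levels. Fast contractile genes such as Myh4 and Tnnc2 lie at the top, while Chrng, Myh3 and Tnnt2 lie at the lower right.

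The fast contractile apparatus was higher in GAS than in MT throughout the list. All 16 members of the list of fast fiber contractile genes were called higher in GAS, with log2 fold changes of 2.52 to 10.45 and a median of 4.67, and 13 of them had ranks above MT in every library, where 27.7 and 39.9% of all tested genes did so. Together they held 222171, 208277 and 212595 TPM in GAS and 33089 and 38058 TPM in MT. Myh4, the myosin heavy chain of the fastest (IIb) fibers, was at 29321, 26347 and 29540.4 TPM in GAS and 86.0 and 74.2 TPM in MT, a log2 fold change of 9.82 ± 0.37 (adjusted p = 1.94e-05). It ranked 6, 8 and 6 in GAS and 2010 and 2177 in MT, with no overlap. Mybpc2, the fast myosin-binding protein C, was at 5018, 4307 and 5028 TPM in GAS and 11.6 and 6.01 TPM in MT, and with 10.45 ± 0.42 it had the largest difference of the list. Tnnc2, the calcium sensor of fast fibers, was at 34321, 32582 and 30817 TPM in GAS and 235 and 205 TPM in MT (8.56 ± 0.28), although 74.0% of its exonic bases also lie in exons of another annotated gene. Tmod4, which caps thin filaments, was at 716, 701 and 737 TPM in GAS and 5.98 and 0 TPM in MT, which means that MT 2 had no read of it.

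MT did hold a part of this apparatus at high levels. Acta1, skeletal alpha-actin, was at 42703, 39419.9 and 40843 TPM in GAS and 17818 and 10230.0 TPM in MT, and its ranks of 2, 2 and 2 in GAS and 2 and 7 in MT overlapped. Myl1, the essential light chain of fast fibers, was at 12561, 10431 and 12007 TPM in GAS and 4901 and 5411 TPM in MT and was called higher in GAS (2.52 ± 0.24), but it stood higher in rank in both MT libraries, at 14 and 11 against 18, 19 and 18, and its difference in rank scores was -0.009. Mylpf, the regulatory light chain of the same fibers, reached 24974, 24024 and 24409.7 TPM in GAS and 4352 and 12806 TPM in MT, with ranks that overlapped. The light chains and actin of the fast sarcomere were thus among the highest transcripts of MT, while Myh4 stood at ranks of 2010 and 2177 and Tnnc2 at 728 and 819 there.

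Genes of the sarcomere scaffold, giant proteins among them, were mostly lower in MT too. Of 16 members, 13 were called higher in GAS and none in MT, with a median log2 fold change of 3.92. Ttn, titin, the molecular spring between Z-disc and M-band, was at 330.3, 309 and 379 TPM in GAS and 26.4 and 32.5 TPM in MT (4.86 ± 0.31). Neb, nebulin, which sets thin filament length, was at 619, 587 and 710.3 TPM in GAS and 69.7 and 99.3 TPM in MT (4.25 ± 0.32, adjusted p = 0.000102). Xirp2 and Nrap, actin-binding proteins of myofibrils, had log2 fold changes of 7.46 and 6.75. The groups did not overlap for any of these 4 genes.

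Slow fiber genes split into opposite directions within one list. Of 10 members, 4 were called higher in GAS, 4 in MT and 2 in neither, and the median log2 fold change was -0.64. Higher in MT were the troponins Tnni1, Tnnc1 and Tnnt1 and the tropomyosin Tpm3, which are the slow forms in adult muscle and are also made early in development. Tnnc1 was at 149, 163 and 109 TPM in GAS and 5511 and 11529 TPM in MT (-4.61 ± 0.42), ranking 11 and 6 in MT. Tnni1 was at 28.4, 32.5 and 17.3 TPM in GAS and 2049 and 2372 TPM in MT (-5.07 ± 0.33). Higher in GAS were Myh7, Myl2, Myl3 and Mybpc1, of which Myl3, the slow ventricular essential light chain, was nearly absent from MT at 143, 194 and 123 TPM in GAS and 0.443 and 0.197 TPM in MT. Its pooled ratio of GAS over MT was 1170.0 (95% interval 458 to 4310.0), an interval that covers counting error only. The calls on Myh7 and Myl2 were lost without GAS 2, the library with the highest level of each, at log2 fold changes of 1.49 and 2.76, so that 2 genes of the list were then called higher in GAS.

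Contractile genes of development were mostly higher in MT than in adult muscle. Of the 8 members, 6 were called higher in MT (27.3% of all tested genes were), none in GAS, and the median log2 fold change was -5.11. Together they held 1699.8, 1135 and 1154 TPM in GAS and 8478 and 15229 TPM in MT, and Actc1, described below, made up most of the GAS sums. Myh3, embryonic myosin heavy chain, was at 0.667, 1.42 and 0.785 TPM in GAS and 968 and 2068 TPM in MT, a log2 fold change of -9.32 ± 0.58 (adjusted p = 5.39e-05). Tnnt2, the troponin T of embryonic and cardiac muscle, was at 0.739, 0.451 and 0.737 TPM in GAS and 1215 and 1131 TPM in MT (-9.48 ± 0.30). Myl4, the embryonic and atrial light chain, was at 6.83, 6.64 and 6.33 TPM in GAS and 1062 and 2233 TPM in MT (-6.65 ± 0.42). In MT 1 and MT 2, Myh3 ranked 140 and 50, Tnnt2 102 and 122 and Myl4 120 and 41, and no GAS library overlapped.

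Acta2, the smooth muscle actin that young muscle cells also make, was at 32.0, 25.7 and 22.5 TPM in GAS and 2183 and 4941 TPM in MT (-5.75 ± 0.46). Ankrd1, a stretch-responsive ankyrin repeat protein of the sarcomere, had a log2 fold change of -4.46 ± 0.31, and Myh8, neonatal myosin heavy chain, -2.59 ± 0.29. Actc1, cardiac alpha-actin, differed from these, since it was also abundant in GAS at 1639, 1080.5 and 1102 TPM, against 2675 and 4313 TPM in MT, and was not called (-0.13 ± 0.33, adjusted p = 0.751). Its sign reversed without MT 2, to 0.48, while under scaling by library total (-1.19) and on rank scores (-0.31) it passed the threshold in favor of MT.

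The make-up of the 6 skeletal myosin heavy chain genes differed between GAS and MT. Myh4 made up 94.7% ± 2.80 in GAS (SD, n = 3) and 4.33% ± 2.30 in MT (SD, n = 2) of the counts per kilobase. Myh3 made up 0.00323% ± 0.00149 in GAS (SD, n = 3) and 71.1% ± 5.86 in MT (SD, n = 2). Myh1, of type IIx fibers, took 3.47% ± 2.03 in GAS (SD, n = 3) and 15.0% ± 1.96 in MT (SD, n = 2), the second largest share in both tissues. Neonatal Myh8 took 0.0245% ± 0.00688 in GAS (SD, n = 3) and 5.63% ± 1.52 in MT (SD, n = 2), and slow Myh7 0.319% ± 0.0937 in GAS (SD, n = 3) and 3.54% ± 0.147 in MT (SD, n = 2). The Myh4 share was 91.5 to 96.6% across the GAS libraries, against 5.96 and 2.70% in MT 1 and MT 2.

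**Figure D2:**
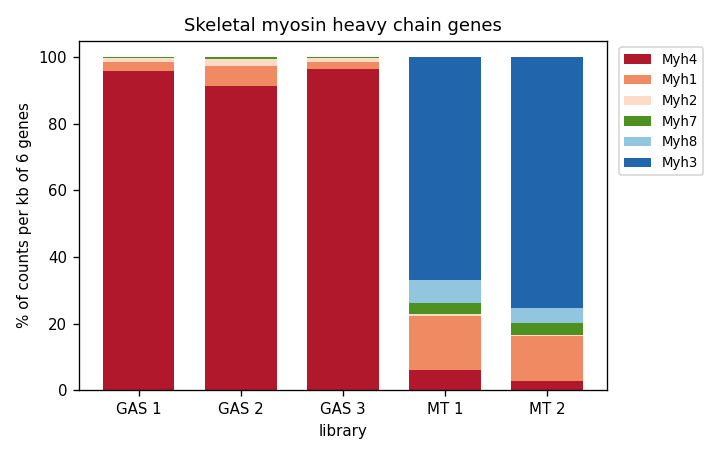
Share of each of 6 myosin heavy chain genes in their summed counts per kilobase of exon (y axis, %), one bar per library. Myh4 fills 91.5 to 96.6% of the GAS bars, and Myh3 fills 67.0 and 75.3% of the MT bars.

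The 2 genes that lead the myosin change lie in one cluster on chromosome 11, and the 250 bases before the RefSeq start of each (GRCm38.p6, gene strand) are printed to show them side by side. Capitals mark every match, on either strand, to the E-box CANNTG, the letters bound by myogenic helix-loop-helix factors, to the TATA box TATAAA, and to the N-box CCGGAA, which is bound by factors of the ETS family. No match overlaps another.
Myh3, chr11:67078050-67078299, plus strand: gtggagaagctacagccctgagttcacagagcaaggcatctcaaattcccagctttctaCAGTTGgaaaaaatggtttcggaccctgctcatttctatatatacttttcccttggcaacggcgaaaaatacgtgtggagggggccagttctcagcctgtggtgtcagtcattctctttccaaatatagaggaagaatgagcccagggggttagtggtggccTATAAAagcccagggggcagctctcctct
Myh4, chr11:67237562-67237811, plus strand: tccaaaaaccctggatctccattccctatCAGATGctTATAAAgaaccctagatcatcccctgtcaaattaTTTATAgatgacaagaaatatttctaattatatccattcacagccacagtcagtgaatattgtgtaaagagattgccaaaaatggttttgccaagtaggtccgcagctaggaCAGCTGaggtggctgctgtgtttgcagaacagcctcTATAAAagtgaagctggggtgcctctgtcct
Myh3 held 1 E-box and 1 TATA box in this window, and Myh4 held 2 E-boxes and 3 TATA matches. Among 32841 promoter windows of the same length, 66.2% held at least 1 E-box, 12.4% at least 1 TATA match, and 3950 windows held an N-box. A match of letters says nothing on whether a factor binds. The GENCODE M21 gene models used for counting lengths start at position 67238029 for Myh4, downstream of this RefSeq start.

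Pairs of genes in which one member is the adult muscle form were compared as shares within a library, a measure that no scaling between protocols touches. The adult share was higher in every GAS library than in both MT libraries for 25 of 25 pairs. The pairs were chosen with earlier results of these data known, so this count describes them and tests nothing. With 3 against 2 libraries, the exact permutation test cannot give a two-sided p under 0.2, which is what every pair had, raw and adjusted over the 25 pairs. The adult member held over 50% in every GAS library for 24 pairs, and in both MT libraries for 10. It held over 50% in every GAS library and under 50% in both MT libraries for 12 pairs. These numbers rest on counts per kilobase of exon. A share can still differ through how the files were counted, which cannot be told apart from tissue here. Most exonic bases of Tnnc2 and Cpt1b, adult members of 2 pairs, also lie in exons of another gene. By counts alone, Tnnt3 and Eno3 were below Tnnt2 and Eno1 in both MT libraries.

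The pair with the widest difference was Chrne and Chrng, the adult and fetal subunits of the muscle acetylcholine receptor, with a Chrne share of 100.0, 100.0 and 99.85% in GAS and 1.08 and 0.509% in MT. Next came Tnnc2 over Tnnc1 at 99.57, 99.50 and 99.65% in GAS and 4.09 and 1.75% in MT, and Myh4 over Myh3 at 100.0, 99.99 and 100.0% in GAS and 8.16 and 3.46% in MT. Slc2a4, the glucose transporter that answers to insulin, made up 98.7, 98.8 and 99.2% in GAS and 4.64 and 11.2% in MT of its sum with Slc2a1, the general transporter. Eef1a2, the translation elongation factor of mature muscle and neurons, made up 87.7, 87.2 and 86.1% in GAS and 0.170 and 0% in MT of its sum with Eef1a1, whose many near-identical copies make its own count uncertain. Ckm, muscle creatine kinase, held 99.98, 99.97 and 99.99% in GAS and 21.2 and 17.4% in MT of its sum with the brain form Ckb. In each of these pairs every GAS library was above every MT library.

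At the other end stood pairs in which MT held a large adult share. Atp2a1, the calcium pump of fast fibers, held 99.61, 99.54 and 99.72% in GAS and 90.8 and 92.4% in MT of its sum with Atp2a2. Pfkm, muscle phosphofructokinase, held 99.97, 99.96 and 99.97% in GAS and 87.9 and 94.2% in MT, and Pygm, muscle glycogen phosphorylase, 99.96, 99.95 and 99.95% in GAS and 77.9 and 87.8% in MT. For the troponin T genes, Tnnt3 held 100.0, 100.0 and 100.0% in GAS and 68.9 and 79.3% in MT. This MT share rests on the division by exon length, which is 1583 bases for Tnnt3 and 7752 for Tnnt2. MT counts of Tnnt3 were the lower ones, at 14097 and 17114 against 31218 and 21810 for Tnnt2. In this last case MT carried both forms, with Tnnt3 at 2688 and 4346 TPM beside the Tnnt2 levels given above, and of the 2 only Tnnt3 was abundant in GAS. MT 1 and MT 2 differed most for Ryr1 over Ryr3, at 99.98, 99.99 and 99.98% in GAS and 53.9 and 86.9% in MT, a pair with 364 and 73 counts of Ryr3 in MT. Its difference between the groups was 29.6 percentage points, with 13.1 without MT 1 and 46.1 without MT 2. Without the division by exon length, the differences for Tnnt3, Pfkm and Atp2a1 were 62.45, 27.53 and 13.13 percentage points in place of 25.9, 8.91 and 8.01.

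**Figure D3:**
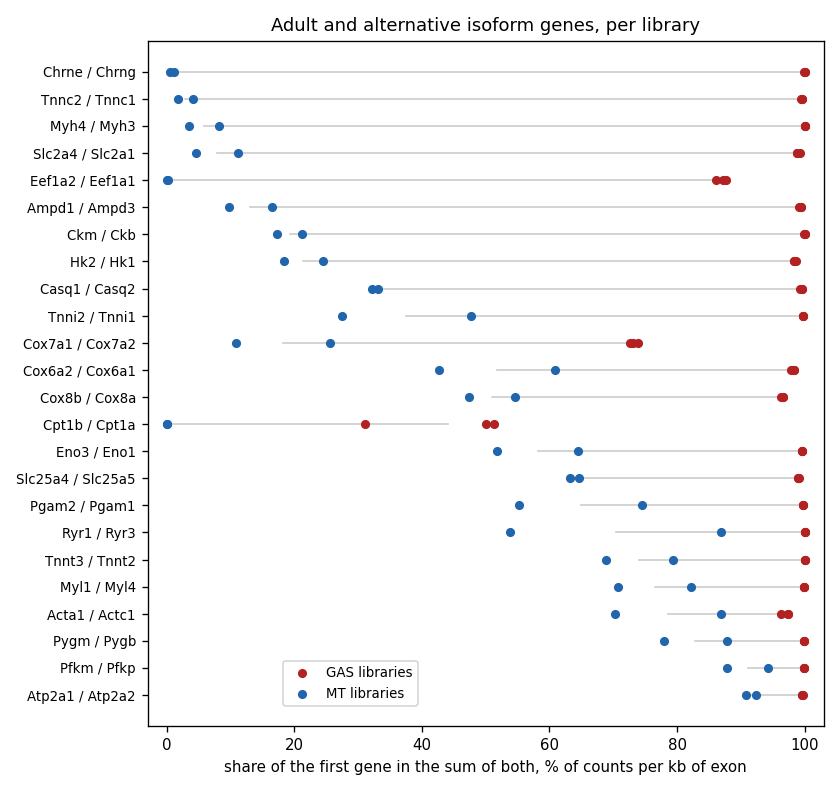
Share of the first-named (adult) gene in the sum of both genes of a pair, in % of counts per kilobase of exon (x axis), for 24 of the 25 pairs and 5 libraries, with a grey line between the group means. Red points (GAS) lie to the right of blue points (MT) in every pair shown, from 99.15 percentage points apart on average for Chrne and Chrng to 8.01 for Atp2a1 and Atp2a2.

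Genes of the neuromuscular junction were mostly higher in MT than in muscle that has a nerve. Of 11 members, 8 were called higher in MT and 2 in GAS (median log2 fold change -1.82), and without MT 2 there were 5 and 2. Chrng, the fetal gamma subunit, had 7414 and 5292 counts in MT and 0, 0 and 1 in the GAS libraries, that is 538 and 511 TPM in MT. The pooled ratio of MT over GAS was 19100.0 (95% interval 3420.0 to 754000.0) by counting error alone. Chrna1, the alpha subunit that binds acetylcholine, was at 9.74, 8.59 and 9.08 TPM in GAS and 1346 and 1509 TPM in MT (-5.95 ± 0.20). Chrnd, the delta subunit, was at 1.07, 1.19 and 1.24 TPM in GAS and 298 and 343 TPM in MT (-6.76 ± 0.19). The receptor kinase Musk, which gathers receptors under the nerve ending, and its partner Lrp4 had log2 fold changes of -3.35 and -2.56.

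The 2 members higher in GAS were Chrne and Ache. Chrne, the adult epsilon subunit, was at 23.0, 22.8 and 21.2 TPM in GAS and 5.89 and 2.62 TPM in MT (3.72 ± 0.31, adjusted p = 0.000146). Ache, the esterase that ends each signal, was at 15.4, 12.5 and 17.6 TPM in GAS and 11.4 and 6.78 TPM in MT (2.10 ± 0.25). Chrnb1, the beta subunit common to the fetal and adult receptors, differed least among the subunits, with -1.03 ± 0.20 and a call that was lost without MT 2 (-0.58). The calls on Rapsn and Dok7, proteins that cluster the receptor and activate Musk, were lost without MT 2 as well (-0.84 and -0.36), and that on Dok7 also when any 1 GAS library was left out (-1.31 to -1.26).

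Since Chrng and Chrne were the pair with the widest difference in share, the 250 bases before the RefSeq start of each are shown with the same capitals.
Chrng, chr1:87205561-87205810, plus strand: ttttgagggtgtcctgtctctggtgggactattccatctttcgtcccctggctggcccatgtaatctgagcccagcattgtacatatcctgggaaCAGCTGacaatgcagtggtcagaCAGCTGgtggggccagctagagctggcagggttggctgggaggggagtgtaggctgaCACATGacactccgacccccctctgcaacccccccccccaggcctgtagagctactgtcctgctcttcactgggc
Chrne, chr11:70619195-70619444, minus strand: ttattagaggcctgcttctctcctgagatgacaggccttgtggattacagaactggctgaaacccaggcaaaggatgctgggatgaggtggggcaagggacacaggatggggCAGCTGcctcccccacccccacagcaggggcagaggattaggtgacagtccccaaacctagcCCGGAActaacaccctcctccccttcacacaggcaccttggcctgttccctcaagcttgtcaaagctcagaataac
Chrng held 3 E-boxes and no N-box in this window, whereas Chrne held 1 E-box and 1 N-box. Of all promoter windows, 12.2% held 3 or more E-boxes. No TATA match was found in either window. These letters are a description of the 2 windows and were not related to the counts. For Chrng the GENCODE M21 model starts upstream of the RefSeq start, at position 87204657.

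Regulators of myogenesis and genes of fusion were more often called higher in MT than in GAS. Of 18 members, 17 were tested, 10 were called higher in MT and 5 in GAS. Mymk and Mymx, the membrane proteins that fuse myoblasts, were close to absent from muscle. Mymk was at 0, 0.534 and 0 TPM in GAS and 1932 and 3463 TPM in MT, with ranks of 43 and 22 in MT. Mymx had 0 counts in all 3 GAS libraries and 276 and 445 TPM in MT, at least 364-fold higher when set against a limit of 3 counts in a GAS library. Myog, the transcription factor that starts terminal differentiation, was at 13.4, 14.9 and 9.002 TPM in GAS and 2004 and 2167 TPM in MT (-6.04 ± 0.27, adjusted p = 2.4e-05). Myod1, which commits cells to the lineage, was at 16.3, 16.9 and 12.1 TPM in GAS and 302 and 643 TPM in MT (-3.66 ± 0.40).

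Among the myogenic factors, Myf6, the one that persists in adult fibers, went the other way at 140.1, 119 and 148 TPM in GAS and 130.0 and 35.0 TPM in MT (2.11 ± 0.48), although its TPM overlapped, its ranks did not, and its call was lost under scaling by library total. Vgll2, a cofactor of TEAD factors in muscle, was at 43.7, 71.4 and 43.0 TPM in GAS and 3.84 and 1.22 TPM in MT (5.67 ± 0.46) and had the largest difference of the 5 genes higher in GAS. Ncam1, an adhesion molecule spread over fibers that lack a nerve, was at 1.29, 1.37 and 1.54 TPM in GAS and 466 and 364 TPM in MT (-6.85 ± 0.17). Cdh2 and Nes, N-cadherin and nestin of young muscle cells, were higher in MT too (-6.06 and -2.82).

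Regulators of the adult fiber, transcription factors and cofactors, were mostly higher in GAS, for 10 of 14 members against 1 in MT. Maf, a factor of the large Maf family that is active in fast IIb fibers, was at 94.8, 100.2 and 93.7 TPM in GAS and 4.83 and 4.39 TPM in MT (5.73 ± 0.17). Sox6, which represses slow fiber genes, was at 24.4, 23.5 and 29.1 TPM in GAS and 1.40 and 0.325 TPM in MT (6.22 ± 0.53). Nfix, which switches embryonic to fetal programs, was at 89.2, 95.3 and 94.5 TPM in GAS and 14.4 and 15.2 TPM in MT (4.00 ± 0.17). Esrra and Ppargc1a, which drive mitochondrial genes, had log2 fold changes of 4.41 ± 0.19 and 2.65 ± 0.24. The member higher in MT was Vgll3, at 1.14, 1.51 and 0.957 TPM in GAS and 34.5 and 67.7 TPM in MT. For each of the genes named here the libraries of the 2 groups did not overlap.

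Most of the machinery that releases and takes up calcium was lower in MT. Of 21 members, 18 were called higher in GAS and 2 in MT, with a median log2 fold change of 4.19. By rank, 18 stood above MT in every library, where 39.9% of all tested genes did so. In sum they held 63899, 59694 and 64074 TPM in GAS and 3445 and 3919.6 TPM in MT. Pvalb, parvalbumin, which buffers calcium so that fast fibers relax quickly, had the largest difference of the list. It was at 29269.6, 26206 and 29068 TPM in GAS and 2.32 and 4.63 TPM in MT, a log2 fold change of 14.36 ± 0.51 (adjusted p = 1.94e-05), and ranked 7, 9 and 7 in GAS.

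Ryr1, the calcium release channel, was at 515, 497 and 512 TPM in GAS and 6.76 and 10.2 TPM in MT (7.23 ± 0.37), and Cacna1s, the voltage sensor that opens it, at 412, 404 and 433 TPM in GAS and 36.8 and 76.6 TPM in MT (4.19 ± 0.43). Jph1 and Jph2, which hold the 2 membranes of the triad together, had log2 fold changes of 6.84 ± 0.31 and 6.33 ± 0.32. Sypl2, a protein of the triad membrane, had a log2 fold change of 8.19 ± 0.44. Other parts were present in MT at closer levels, such as Cacng1 at 475, 456 and 495 TPM in GAS and 265 and 442 TPM in MT and Cacnb1 at 108, 117 and 101 TPM in GAS and 103 and 87.1 TPM in MT, both subunits of the voltage sensor, with log2 fold changes of 1.75 and 1.55 that were no longer called under scaling by library total. The 2 genes higher in MT were Casq2, the calsequestrin of heart and slow muscle, at 19.3, 32.5 and 15.3 TPM in GAS and 1179.5 and 975 TPM in MT, and Ryr3, the release channel of fetal muscle, at 0.0961, 0.0567 and 0.107 TPM in GAS and 5.79 and 1.55 TPM in MT.

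Channels of the surface membrane were mostly higher in GAS. Of 9 members, 7 were called higher in GAS and 2 in MT, where 27.7 and 27.3% of all tested genes were. The median over the list was 6.33. Clcn1, the chloride channel that keeps resting fibers from firing, was at 111, 107 and 114 TPM in GAS and 3.28 and 1.04 TPM in MT (7.01 ± 0.44). Scn4a, the sodium channel of adult muscle, was at 192, 188 and 186 TPM in GAS and 3.99 and 6.79 TPM in MT (6.47 ± 0.37). Scn4b, a beta subunit of sodium channels, was among the 15 genes with the largest difference in favor of GAS, at 286, 302 and 301 TPM in GAS and 0.848 and 0 TPM in MT. Kcnn3, a potassium channel opened by calcium and known from uninnervated muscle, was among the genes higher in MT, with a log2 fold change of -4.82 ± 0.67.

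**Figure D4:**
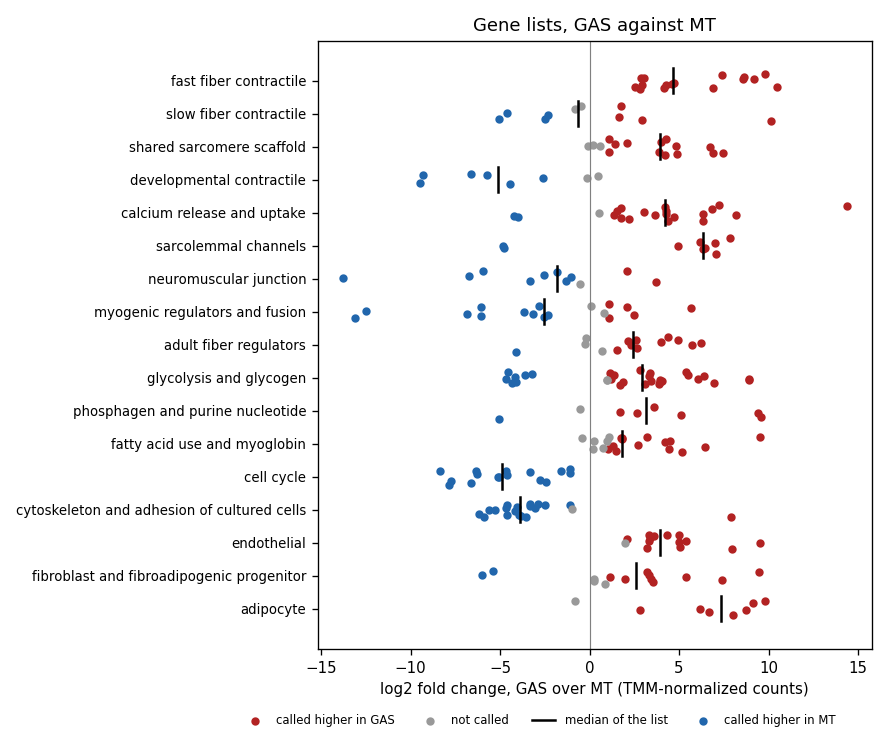
Log2 fold change of GAS over MT (x axis) for the tested members of 17 lists, one point per gene, colored by call, with the median of each list as a black bar. All 16 fast fiber genes lie to the right of 0 and all 16 cell cycle genes to the left, while the glycolysis list splits into 21 and 7.

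Enzymes of glycolysis and glycogen split by isoform. Of 30 members, 21 were called higher in GAS and 7 in MT, where 27.7 and 27.3% of all tested genes were. The 7 higher in MT were Slc2a1, Hk1, Pfkp, Pfkl, Pgam1, Eno1 and Pygb, the general forms of a step. Their muscle counterparts Slc2a4, Hk2, Pfkm, Pgam2, Eno3 and Pygm were all higher in GAS, with log2 fold changes of 3.32 for Hk2 to 5.51 for Slc2a4. Eno3, muscle enolase, was at 9467, 8669 and 9610.5 TPM in GAS and 1678 and 1508 TPM in MT (3.89 ± 0.21), and Eno1 at 36.0, 37.4 and 40.5 TPM in GAS and 1558 and 831 TPM in MT (-3.60 ± 0.24). Pgam1 has several processed copies in the genome, so its count is less certain.

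Genes around glycogen and the glycerol phosphate shuttle were higher in GAS too. Phkg1, the catalytic subunit of muscle phosphorylase kinase, was at 312, 296 and 318 TPM in GAS and 2.69 and 0.556 TPM in MT (8.90 ± 0.63), and Phka1, a regulatory subunit, had a log2 fold change of 6.06 ± 0.23. Gpd1, which passes electrons of glycolysis to mitochondria, was at 693, 667 and 736 TPM in GAS and 6.12 and 1.09 TPM in MT (8.93 ± 0.68, adjusted p = 0.000102). In contrast, the shared enzyme Aldoa was at 15766, 15338 and 16436 TPM in GAS and 5906 and 5682 TPM in MT, called higher in GAS (2.80 ± 0.22) although it stood higher in rank in both MT libraries. Ldha, lactate dehydrogenase A, was at 2255, 2225 and 2336 TPM in GAS and 2945 and 2217 TPM in MT, with overlapping ranks and a log2 fold change of 1.18 ± 0.18 that was no longer called under scaling by library total. Both reversed in sign on rank scores, to -0.125 for Aldoa and -0.171 for Ldha.

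For genes of high-energy phosphate and purine nucleotides, 6 of 8 members were called higher in GAS and 1 in MT. Ckm was at 21563, 20276 and 22192 TPM in GAS and 43.9 and 114 TPM in MT (9.39 ± 0.70, adjusted p = 9.62e-05), and Ckb, the member higher in MT, at 4.59, 5.16 and 3.19 TPM in GAS and 164 and 541 TPM in MT (-5.05 ± 0.59). Ampd1, muscle AMP deaminase, was at 1216, 1028 and 1284 TPM in GAS and 3.74 and 4.19 TPM in MT (9.56 ± 0.31). Ckm thus ranked 14, 14 and 13 in GAS and 3466 and 1482 in MT.

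Genes of fatty acid use were higher in GAS for 14 of 20 members and in MT for none, with a median of 1.79. Under scaling by library total, or with a log2 fold change over 2, there were 8. Ucp3, an uncoupling protein of muscle mitochondria, was at 151, 179 and 282 TPM in GAS and 9.72 and 1.92 TPM in MT (6.48 ± 0.70). Pdk4, the kinase that closes the entry of pyruvate during fasting, was at 559, 863 and 989 TPM in GAS and 74.7 and 106 TPM in MT (4.48 ± 0.39). Fabp3, which carries fatty acids in muscle, was at 667, 1137 and 664 TPM in GAS and 102 and 119 TPM in MT (4.23 ± 0.35), and Lpl, which frees them from blood lipids, at 86.7, 173 and 94.1 TPM in GAS and 5.59 and 10.7 TPM in MT (5.17 ± 0.55). Mb, myoglobin, was not called at 1387, 2472 and 1157 TPM in GAS and 826 and 2950.2 TPM in MT (1.11 ± 0.64, adjusted p = 0.167), and the MT libraries lay on either side of the GAS libraries. Without MT 2, Mb was called higher in GAS (2.56), as it was with the replicate block (1.60). Cpt1b, the muscle carnitine transferase, had no counts in any MT or MB library and 3.94, 4.39 and 2.78 TPM in GAS, but 81.4% of its exonic bases lie in exons of another gene and its value is uncertain.

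Genes encoded in mitochondrial DNA took 10.2 to 10.7% of the protein-coding counts in GAS and 1.40 and 1.86% in MT, and 13 of 13 were called higher in GAS. They did not behave as one group in MT. mt-Co1, mt-Cytb, mt-Nd1, mt-Nd2, mt-Nd4, mt-Nd5 and mt-Nd6 were at 1075 to 15556 TPM there, while mt-Co2, mt-Co3, mt-Atp6, mt-Atp8, mt-Nd3 and mt-Nd4l were at 9.24 to 46.0 TPM. The same 6 genes were low in MB too, with mt-Co2 at 10.3 and 32.4 and mt-Co3 at 5.70 and 12.6 TPM, so the split is found in the Smart-seq2 libraries of both cell types. In GAS mt-Co3 was at 21595, 22083 and 21936 and mt-Cytb at 27615, 28351 and 28913 TPM. Stretches of mitochondrial DNA have near-identical copies in the nuclear genome, so these counts are uncertain, and how reads with several alignments were counted is not given in the sources used here. The muscle forms of respiratory chain genes in the nucleus were higher in GAS for 4 of 4 members, with log2 fold changes of 3.34 ± 0.24 for Cox7a1 and 2.25 ± 0.36 for Cox6a2.

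Transcripts of the cell cycle were higher in MT than in muscle. All 16 members were called higher in MT, with a median log2 fold change of -4.88, and a summed level of 36.5, 40.7 and 40.8 TPM in GAS and 732 and 713 TPM in MT. The MB libraries stood at 3623 and 4556 TPM, above MT. Cdk1, the kinase of mitosis, was at 0.106, 0.0545 and 0.0551 TPM in GAS and 50.3 and 33.7 TPM in MT (-7.76 ± 0.30), Top2a, topoisomerase of dividing cells, at 0.159, 0.299 and 0.121 TPM in GAS and 51.2 and 31.2 TPM in MT (-6.36 ± 0.35), and Rrm2, which makes DNA precursors, at 0.752, 0.631 and 0.393 TPM in GAS and 164 and 141 TPM in MT (-6.64 ± 0.23). Pcna and Mcm7, which non-dividing tissue also expresses, differed least (-1.06 and -1.10), and without MT 2 these calls and that on Mcm2 were lost, at -0.64, -0.45 and -0.86 for Pcna, Mcm7 and Mcm2. When at least 10 counts were required in every library, 7 of the 16 genes were called.

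Genes of the cytoskeleton and adhesion typical of cells on a dish gave 18 of 20 members higher in MT and 1 in GAS. Actb, beta-actin, was at 217, 193 and 154 TPM in GAS and 5153 and 6018 TPM in MT (-3.55 ± 0.24). Tmsb10, thymosin beta 10, which binds free actin, was at 22.2, 25.4 and 21.5 TPM in GAS and 4295 and 4333 TPM in MT (-6.20 ± 0.18). Tubb6, a beta-tubulin, was at 7.38, 11.3 and 10.7 TPM in GAS and 1696 and 1343 TPM in MT (-5.92 ± 0.23), and Lgals1, galectin 1, at 394, 395 and 342 TPM in GAS and 11625 and 15579.9 TPM in MT (-3.84 ± 0.24). The groups did not overlap for these 4 genes, and Lgals1 was one of the 10 highest transcripts of MT. Thy1, a surface protein of fibroblasts and neurons, was the member higher in GAS, with 1 and 0 counts in MT.

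Among genes of at least 50 TPM in their higher group and with ranks that did not overlap, 842 were called higher in GAS and 1285 in MT, and the 15 with the largest log2 fold change were listed on each side. On the GAS side these held Hba-a1 and Hba-a2 of red cells, Pvalb, Eef1a2, Scn4b and 4 mitochondrial genes of the uncertain group. Smco1, a membrane protein of muscle, had 0 counts in both MT libraries and 78.8, 82.3 and 94.2 TPM in GAS, at least 237-fold higher against 3 counts in an MT library. Klhl38, a kelch protein of muscle, was at 69.4, 83.8 and 66.7 TPM in GAS and 0.136 and 0 TPM in MT, with 65.4% of its exonic bases in exons of another gene. Lrrc14b, Rangrf and Hist2h2aa1 were at 0 in both MT libraries too, but 100.0, 90.7 and 100.0% of their exonic bases lie in exons of other genes. Gm21887, a predicted gene, was at 187, 53.9 and 34.8 TPM in GAS and 0 and 0 TPM in MT.

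On the MT side stood secreted proteins beside the genes of fusion and the fetal sarcomere. Spp1, osteopontin, was the highest transcript of both MT libraries, at 2.29, 1.63 and 2.48 TPM in GAS and 23368 and 27525 TPM in MT (-12.20 ± 0.35, adjusted p = 1.94e-05), and at 3915 and 11099 TPM in MB. C1qtnf3, a secreted relative of complement C1q and adiponectin, was at 0.306, 0.842 and 0.319 TPM in GAS and 418 and 1317 TPM in MT (-9.48 ± 0.77). Angpt4, an angiopoietin, was at 0.0558, 0 and 0 TPM in GAS and 229.5 and 57.5 TPM in MT, and Msln, mesothelin of serosal surfaces, at 0.170, 0 and 0.0887 TPM in GAS and 240.2 and 121 TPM in MT. Mcpt8, a protease known from basophils, had 0 counts in GAS and 376 and 252 TPM in MT, at least 299-fold higher. R3hdml, BC051019, Cd300c and Gm9844 were also at or near 0 in GAS. Gm10800, a predicted gene, headed the list on the strength of MT 1 alone, with 12524 and 4.87 TPM in MT 1 and MT 2, and its call was lost when any 1 GAS library was left out, at log2 fold changes of -16.49 to -16.45.

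Some genes passed a detection limit in 1 tissue and stayed near 0 in the other. At least 1 CPM (count per 1e6 protein-coding counts) in all 3 GAS libraries and at most 3 counts in both MT libraries was found for 203 of 11140 genes (1.82%), of which 82 had no count in MT. Without MT 1 there were 747. Of the 203 genes, 187 also had at most 3 counts in both MB libraries. For 26 of them (12.8%) over 50% of the exonic bases lay in exons of another gene, against 1.54% of all genes at that level in GAS. The reverse was found for 358 of 11487 genes (3.12%), of which 122 had no count in GAS, and without MT 2 there were 2445.

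Markers of 10 other cell types that whole muscle can hold were read next, and endothelial genes were mostly higher in GAS. In bulk samples, fewer cells of a type and less RNA per cell cannot be told apart, and the lists below are read as levels of their genes. Endothelial markers were called higher in GAS for 13 of 14 members and in MT for none, and for 14 without MT 1, and their ranks were above MT for all 14. They summed to 370.0, 352 and 392 TPM in GAS and 69.4 and 25.9 TPM in MT. Pecam1, the adhesion molecule of vessel walls, was at 17.4, 18.2 and 18.2 TPM in GAS and 0.0969 and 0 TPM in MT, a pooled ratio of 835 (95% interval 231 to 6900.0). Cdh5, VE-cadherin, was at 30.0, 30.4 and 28.2 TPM in GAS and 4.60 and 0 TPM in MT (4.98 ± 0.89), and Aqp1, a water channel of capillaries, at 166, 139 and 190.1 TPM in GAS and 12.4 and 7.65 TPM in MT (5.39 ± 0.27). More than 3 counts were found for 12 of the 14 genes in MT 1 and for 5 in MT 2. When at least 10 counts were required in every library, which leaves genes near 0 in MT untested, 5 endothelial, 1 adipocyte, 1 tenocyte and 1 macrophage gene were called higher in GAS, and no erythroid gene was. The calls on Cldn5 and Vwf, a tight junction protein and a clotting factor of vessel walls, were lost when any 1 GAS library was left out, at 3.23 to 3.46 and 3.10 to 3.46.

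Among the cell type lists, erythroid and adipocyte genes had the largest median differences. The 5 erythroid genes were all higher in GAS, and summed to 17733, 9859 and 3459 TPM in GAS and 33.3 and 1.00 TPM in MT. The GAS libraries differed among themselves in these genes, with Hbb-bs, a beta globin, at 7159.6, 3931 and 1424 TPM in the 3 replicates. Hba-a1 and Hba-a2, which encode the same alpha globin and share reads, had no count in MT. Adipocyte markers were called higher in GAS for 7 of 8 members (8 without MT 1) and in MT for none, with a median of 7.36, or 6.43 with Plin1, which has no count in MT, at its bound. Adipoq, adiponectin, was at 19.4, 24.0 and 40.6 TPM in GAS and 1.75 and 0 TPM in MT (6.17 ± 0.76), Cfd, adipsin, at 157, 223 and 283 TPM in GAS and 2.29 and 0 TPM in MT (8.74 ± 0.63), and Fabp4, the fatty acid carrier of fat cells and capillaries, at 64.6, 82.3 and 83.1 TPM in GAS and 0.471 and 0.179 TPM in MT (9.13 ± 0.32).

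Markers of fibroblasts did not move as one. Of 14 members, 9 were called higher in GAS, 2 in MT and 3 in neither, and without MT 1 there were 11 and 2. Clec3b and Pi16, which mark resting fibroblasts and progenitors, were at 106, 120.3 and 97.3 TPM in GAS and 0.304 and 0.405 TPM in MT for Clec3b and 13.7, 18.0 and 14.2 TPM in GAS and 0 and 0.505 TPM in MT for Pi16. Dpt, dermatopontin, was at 72.8, 85.2 and 74.5 TPM in GAS and 7.18 and 1.87 TPM in MT (5.40 ± 0.42), and Pdgfra, the receptor that defines fibroadipogenic progenitors, at 5.04, 5.79 and 7.42 TPM in GAS and 2.29 and 0.802 TPM in MT (3.32 ± 0.40). The 2 members higher in MT were the collagens Col3a1, at 38.2, 44.9 and 37.0 TPM in GAS and 4334 and 4086 TPM in MT (-5.37 ± 0.20), and Col1a1, at 24.5, 27.6 and 25.4 TPM in GAS and 8100.4 and 849 TPM in MT (-6.01 ± 0.87). Col1a2, the partner chain of Col1a1 in collagen type I, was at only 10.4 and 0.550 TPM in MT against 19.4, 24.5 and 22.3 TPM in GAS, so that the 2 chains went in opposite directions, although the call on Col1a2 was lost when any 1 GAS library was left out (3.37 to 3.47). The chains lay far apart within each MT library, Col1a1 also differed between MT 1 and MT 2, and the cause was not tested. Summed over the list, MT was higher, at 1161, 1252 and 1279 TPM in GAS and 14679 and 6133 TPM in MT, and Col3a1 and Col1a1 made up the larger part of the MT sums.

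Tenocyte markers were called higher in GAS for 6 of 8 members and in MT for 1, and without MT 1 for 6 and 2. Tnmd, tenomodulin, was at 6.74, 12.4 and 12.4 TPM in GAS and 1.56 and 0 TPM in MT, and Comp, a matrix protein of tendon, at 2.19, 4.58 and 4.21 TPM in GAS and 0.102 and 0 TPM in MT, while Mkx, a transcription factor of tendon, was at 0.127, 0.526 and 0.498 TPM in GAS and 10.0 and 9.13 TPM in MT. Markers of pericytes and smooth muscle gave 5 higher in GAS and 2 in MT of 10 members, the latter below the 27.3% of all tested genes. Rgs5, a regulator of signaling in pericytes, was at 118, 113 and 114 TPM in GAS and 9.23 and 0.0884 TPM in MT, and Kcnj8 and Abcc9, the channel and its receptor subunit, had log2 fold changes of 8.17 and 6.04. Higher in MT were Pdgfrb, at 7.70, 7.07 and 7.57 TPM in GAS and 77.9 and 121 TPM in MT, and Tagln, at 25.3, 24.5 and 22.4 TPM in GAS and 508 and 769.7 TPM in MT, both of which mesenchymal cells in culture also express.

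Markers of macrophages were called higher in GAS for 5 of 11 members and in MT for 1, and without MT 1 for 9 and 1. C1qb and C1qc, subunits of complement C1q, had no count in MT and 14.6, 20.4 and 17.5 and 9.04, 13.1 and 10.3 TPM in GAS. Lyz2, lysozyme, was at 61.5, 74.6 and 64.2 TPM in GAS and 6.88 and 2.75 TPM in MT (5.11 ± 0.32). Schwann cell markers were called higher in GAS for 3 of 9 members and in MT for 2, near the 27.7 and 27.3% of all tested genes, and without MT 1 for 5 and 2. Tested were 10 of the 11 macrophage members and 8 of the 9 Schwann cell members. Lymphocyte markers were low in every library, with sums of 4.08, 4.23 and 1.92 TPM in GAS and 15.7 and 1.82 TPM in MT. Of the 5 lymphocyte genes tested of 9 members, 1 was called in each direction, with Cd3g higher in MT. Without MT 1 there were 4 and 1, and the member called higher in GAS no longer passed the filter on low counts when any 1 GAS library was left out. Cd3e, a defining gene of T cells, was at 0, 0 and 0 TPM in GAS and 0.444 and 0 TPM in MT.

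Satellite cell markers were more often called higher in MT, and the share called higher in GAS was below the 27.7% of all tested genes. Of 9 members, 5 were called higher in MT and 2 in GAS (5 and 3 without MT 1), and they summed to 64.7, 73.8 and 57.8 TPM in GAS and 952 and 1022 TPM in MT, with 1379 and 1160.4 TPM in MB. Vcam1, an adhesion molecule, was at 0.852, 0.941 and 0.720 TPM in GAS and 37.7 and 39.6 TPM in MT (-4.18 ± 0.18), and Sdc4, syndecan 4, at 25.7, 31.0 and 19.8 TPM in GAS and 721 and 566 TPM in MT (-3.30 ± 0.21). Sdc4 thus made up the larger part of the MT sums. Myf5 and Cdh15, shared with the list of myogenic regulators, had log2 fold changes of -2.31 and -2.56. Pax7, the factor that defines satellite cells, was low in both tissues at 0.889, 1.10 and 1.04 TPM in GAS and 0.721 and 0.892 TPM in MT, with groups that overlapped, and its call in favor of GAS (1.66 ± 0.47) was lost when any 1 GAS library was left out (1.61 to 1.73). Chodl, a surface lectin found on quiescent satellite cells, was at 3.32, 4.34 and 4.88 TPM in GAS and 0.275 and 0.146 TPM in MT (5.58 ± 0.40).

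**Figure D5:**
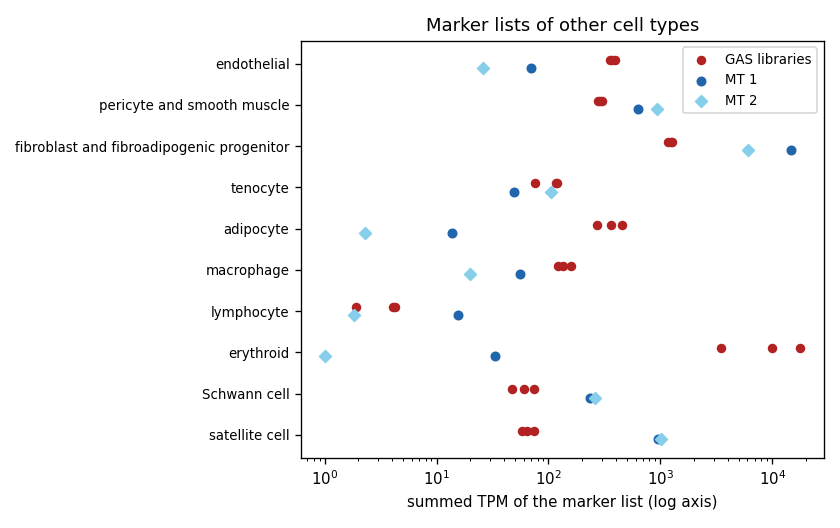
Summed TPM of 10 marker lists of other cell types (x axis, log scale) in each GAS library (red) and in MT 1 and MT 2 (blue). Endothelial, adipocyte, macrophage and erythroid sums lie higher in all GAS libraries, fibroblast, pericyte, Schwann and satellite cell sums lie higher in both MT libraries, and MT 1 exceeds MT 2 for endothelial, adipocyte, macrophage, lymphocyte and erythroid genes. A sum follows the highest genes of its list. The median log2 fold changes of the fibroblast, pericyte and Schwann lists were in favor of GAS, at 2.58, 1.52 and 1.56.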

How the data were processed

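RNA-seq counts of 3 GAS, 2 MT and, for reference, 2 MB libraries were used, and sample groups follow the labels. The deposited values are raw read counts per gene, which the authors obtained with Trim Galore 0.6.6, HISAT2 2.2.1 and featureCounts of Subread 2.0.1 on the mouse genome, with poly(A)-enriched libraries for GAS and Smart-seq2 for the cultured cells. Their annotation release, strand setting and treatment of reads with several alignments are not given in the sources used here, and overlapping or duplicated genes are therefore uncertain.

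From these counts, protein-coding genes of GENCODE M21 present in both sets of files were kept. Depth was 7770793 to 19941574 counts per library, and intervals and floors of 3 counts cover counting error only. Genes passing filterByExpr were tested with edgeR 4.0.16 (quasi-likelihood, TMM, Benjamini-Hochberg adjustment over all 13471 tested genes), and shares of gene pairs with exact two-sided permutation tests. TPM used the union of exons. DESeq2 1.42.0, limma 3.58.1 on rank scores, other scalings and filters, a replicate block and leaving out each library were run as alternatives, and the scripts were tested on simulated data. Promoter windows are from RefSeq on GRCm38.p6. Genes are named from the gene lists and pairs, from the 15 largest changes in each direction at a mean of at least 50 TPM with ranks that do not overlap, and from the 10 highest genes of each group. Some list members are counted but not reported here by name. Members and lists were chosen with earlier results of these data known.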

Additional observations from a re-analysis of the deposited data

How the results depend on the processing

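Library total alone gave 2028 genes higher in GAS and 6593 in MT, and a log2 fold change over 2 gave 2369 and 2360. Leaving out each library in turn gave 3300 to 4411 genes higher in GAS and 3276 to 5817 higher in MT, the highest without MT 2, where the lone MT library is assumed to vary like GAS. The replicate block gave 3338 and 2862. Deviations of same-numbered libraries correlated at -0.045 and -0.064. With 2 MT libraries the MT deviations mirror each other, so these values cannot show whether the numbers pair the libraries. The main fit did not pair them. Leaving out genes with over 3 counts in MT 1 and none in MT 2, an alternative chosen after seeing the data, gave 3527 and 3683. Fatty acid genes higher in GAS numbered 8 under library total alone and 8 with a log2 fold change over 2, and cell cycle genes higher in MT numbered 7 with at least 10 counts in every library. On rank scores the sign reversed for Myl1 (-0.009), Aldoa (-0.125), Ldha (-0.171) and mt-Cytb (-0.131), and for Actc1 with a library left out (-0.523 without MT 1 to 0.483 without MT 2). Without division by length, the difference in adult share was 62.45 percentage points for Tnnt3, 78.89 for Tnni2, 40.19 for Myl1, 13.13 for Atp2a1, 73.52 for Casq1, 67.34 for Eno3, 54.47 for Pgam2, 27.53 for Pfkm, 81.73 for Hk2, 56.38 for Cox8b, 27.56 for Slc25a4, 26.31 for Cpt1b and 84.77 for Eef1a2, since exon lengths differ within pairs. Genes detected in GAS alone numbered 82 with 0 counts in MT, 71 at 5 CPM, and 214 to 747 with a library left out, the highest without MT 1. Genes detected in MT alone numbered 612 with libraries drawn down to the smallest total, 122 with 0 counts in GAS, 127 at 5 CPM, and 390 to 2445 with a library left out, the highest without MT 2. Apart from these values, the cause of which was not tested where none is named, the values of named genes under the alternatives kept direction and call in 2590 cases, lost the call in 56 and gained it in 4. With 2 MT libraries, low genes are limited by the depth of MT 2.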

Other observations

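The circadian clock list gave 6 of 14 members higher in GAS and none in MT, where 27.7 and 27.3% of all tested genes were called. Tef, a transcription factor under clock control, was at 104, 87.3 and 118 TPM in GAS and 15.3 and 15.0 TPM in MT (4.12 ± 0.22). Nr1d1, the repressor REV-ERB alpha, was at 138, 139.6 and 121 TPM in GAS and 38.9 and 39.3 TPM in MT (3.11 ± 0.16), and Dbp, which cycles strongly over the day, at 69.4, 33.9 and 94.8 TPM in GAS and 12.8 and 6.72 TPM in MT (4.12 ± 0.55). Dbp differed more among the GAS libraries than the other 2 genes, and the hour of sampling is not in the labels. Imprinted genes of growth gave 2 higher in GAS and 2 in MT of 9 tested members, no more than those shares. Cdkn1c, an inhibitor of cell cycle kinases, was at 17.1, 18.9 and 23.1 TPM in GAS and 1.92 and 1.38 TPM in MT (4.90 ± 0.28), and Peg3, a zinc finger protein, at 6.35, 6.98 and 9.51 TPM in GAS and 62.9 and 98.9 TPM in MT (-2.08 ± 0.30). Of 74 genes of cytosolic ribosomal proteins tested, 15 were called higher in GAS and 2 in MT, both below those shares, with a median log2 fold change of 0.43. By exon length, the median log2 fold change over the 4491 shortest, 4489 middle and 4491 longest genes was -0.156, -0.117 and 0.159.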
